A study of Mus musculus with 8 samples.

Results

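The Hox genes are the 39 genes, of 52636 in the files, whose symbol is Hox followed by the letter a, b, c or d and a number, with antisense and opposite-strand transcripts left out. Their transcripts were counted in liver RNA of 8 samples, from mice of the C57BL/6 strain aged 8 weeks. In all 8 samples both Ctcf alleles were floxed (CTCF fl/fl). In 4 samples no Cre was present (Albcre-, here WT), and in the other 4 Cre was driven by the albumin promoter (Albcre+, here cKO), which acts in hepatocytes. No group carried Cre without the floxed alleles, so that an effect of Cre cannot be told apart from that of the deletion. The question asked of the Hox genes was which of them are transcribed in adult liver and which differ in level when Ctcf is deleted in albumin-expressing cells.

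Hox genes encode homeodomain transcription factors that give cells their position along the body axis. In mammals they lie in 4 clusters, each with its genes in the order of their paralog numbers, and low numbers are used towards the head and high numbers towards the tail. The clusters are held silent by Polycomb proteins and opened by trithorax-class proteins and retinoic acid, and CTCF, a zinc finger protein that bounds chromatin domains, binds at several places within and beside them. In adults, fibroblasts and other mesenchymal cells are known to keep a Hox pattern that reflects their origin.

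The bases before the RefSeq start sites of 3 members are printed because these members stand for the patterns described below. Hoxa2 was the member called higher in cKO, a call that depended on single libraries. Hoxb4 was the member with the highest level, and Hoxd9 was a near-silent member. Each run is the 250 bases before the start, 5′ to 3′ on the strand of the gene, from RefSeq's GRCm38.p6, the assembly called mm10 in the files. They lie at chr6:52164832-52165081 (minus strand), chr11:96318017-96318266 (plus strand) and chr2:74697513-74697762 (plus strand).
Hoxa2: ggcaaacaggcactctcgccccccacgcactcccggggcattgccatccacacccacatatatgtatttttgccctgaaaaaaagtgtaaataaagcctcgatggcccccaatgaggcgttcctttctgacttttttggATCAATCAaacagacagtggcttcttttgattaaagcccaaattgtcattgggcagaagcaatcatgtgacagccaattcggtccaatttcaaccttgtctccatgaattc
Hoxb4: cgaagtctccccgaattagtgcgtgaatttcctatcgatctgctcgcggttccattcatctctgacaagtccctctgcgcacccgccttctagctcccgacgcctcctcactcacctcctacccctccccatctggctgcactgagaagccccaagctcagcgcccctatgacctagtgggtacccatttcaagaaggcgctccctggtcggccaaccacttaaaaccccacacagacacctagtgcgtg
Hoxd9: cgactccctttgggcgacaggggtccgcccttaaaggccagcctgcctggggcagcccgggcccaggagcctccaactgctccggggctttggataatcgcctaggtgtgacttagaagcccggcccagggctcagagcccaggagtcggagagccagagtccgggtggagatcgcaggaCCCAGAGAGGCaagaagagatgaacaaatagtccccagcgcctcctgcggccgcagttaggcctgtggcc
Capitals mark matches to 2 patterns searched on both strands. The first is a short CTCF-like pattern (CC, any 3 bases, AG, any base, GGC). The second is the motif bound jointly by HOX and PBX proteins (TGATNNAT). The CTCF-like pattern has fewer bases between AG and GGC than the CTCF motif. Its matches, and their absence, therefore do not show whether a window holds the CTCF motif. No marked match overlaps another. The Hoxa2 run holds the HOX-PBX motif on the opposite strand, the Hoxd9 run holds the CTCF-like pattern, and the Hoxb4 run holds neither. The CTCF-like pattern was found in 6.31% and the HOX-PBX motif in 7.68% of 32851 windows of the same length. Of 24 windows for 22 Hox genes among these, 1 (Hoxd9) held the CTCF-like pattern and 4 (Hoxa2, Hoxb1, Hoxb8 and Hoxd11) the HOX-PBX motif. A match is a stretch of letters and not a measured binding site.

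Transcripts of the Hox genes were rare and came from the low-numbered ends of 2 clusters. All 39 together had 2271 expected counts over the 8 libraries, and 96.7% of these fell in paralogs 1 to 5 of the Hoxa and Hoxb clusters. Expected counts are RSEM's estimates of reads per gene, which need not be whole because a read that fits several genes is divided between them. Library totals were 43.9 to 57.3 M counts (M for mega), on average 46.1 ± 2.93 M in WT and 52.4 ± 3.29 M in cKO (SD, n = 4 each). The Hoxb cluster (mm10 chromosome 11, 96194316 to 96368254) held 68.1% of the Hox counts and the Hoxa cluster (chromosome 6, 52155367 to 52260880) 31.6%. The Hoxc cluster (chromosome 15, 102921131 to 103036856) had a single count in all, for Hoxc6 in WT replicate 1. The Hoxd cluster (chromosome 2, 74668225 to 74765142) had 5 counts, of which Hoxd8 had 3 and Hoxd4 and Hoxd9 had 1 each.

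**Figure D1:**
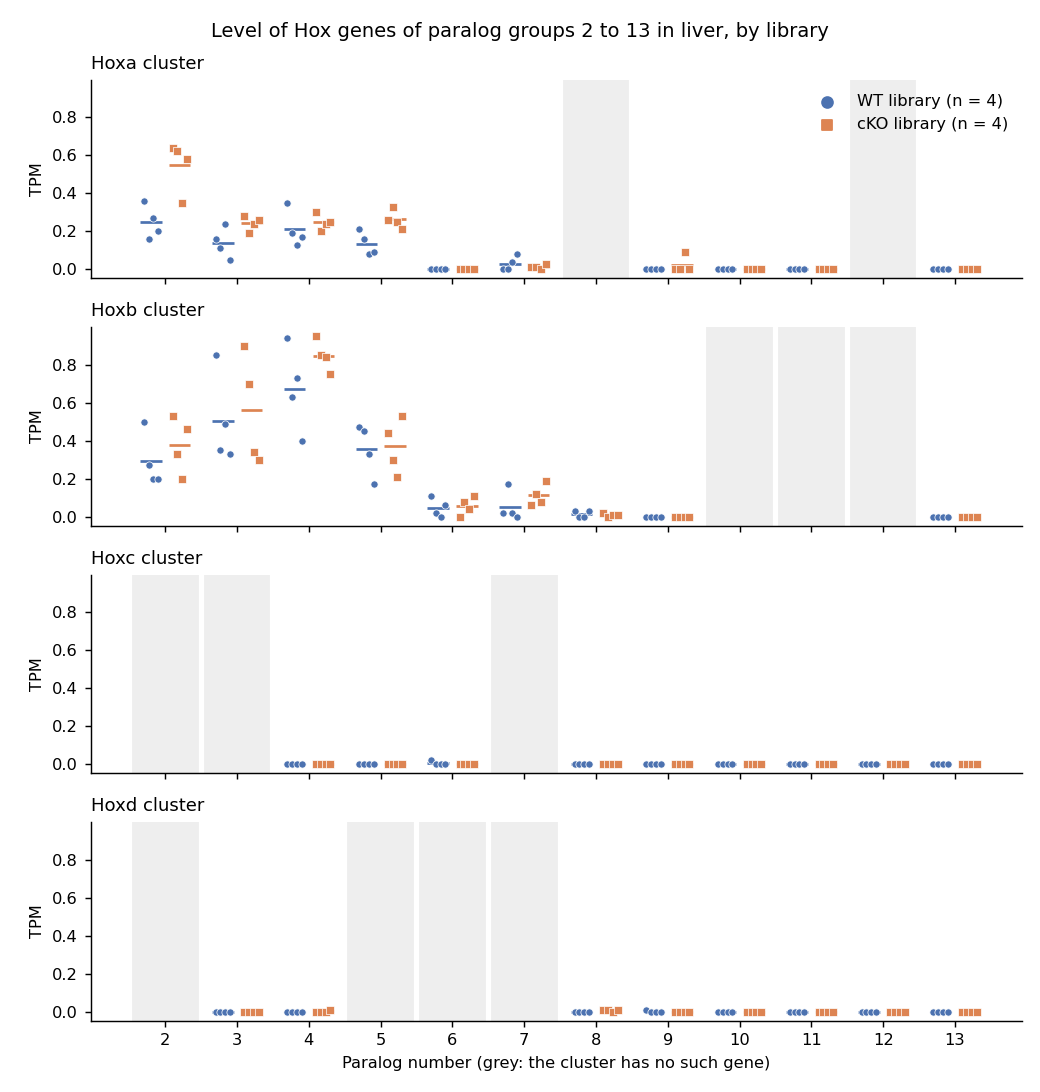
TPM (vertical axis) of the Hox genes of paralog groups 2 to 13, by paralog number (horizontal axis), in each of the 4 clusters, with 1 point per library and a line at the mean of 4 libraries per genotype. Hoxa2 to Hoxa5 and Hoxb2 to Hoxb5 stand above the rest, and the Hoxc and Hoxd panels lie at or near 0.

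On a scale adjusted for transcript length (TPM, each gene as a share of all transcripts) Hoxb4 was highest, at 0.675 ± 0.224 in WT and 0.847 ± 0.082 in cKO. Hoxb3 followed at 0.505 ± 0.241 and 0.560 ± 0.289 TPM. Hoxa2, Hoxb5 and Hoxb2 came next over all libraries, with means of 0.398, 0.362 and 0.336 TPM, and Hoxa4, Hoxa5 and Hoxa3 had 0.229, 0.199 and 0.191 TPM. The place of Hoxa2 depended on genotype. In WT its mean of 0.247 TPM lay under those of Hoxb5 (0.355) and Hoxb2 (0.292). In cKO its mean of 0.547 TPM lay above both (0.37 and 0.38). In WT the gap between Hoxb4 and Hoxb3 was smaller than the SD of either, and the gaps among Hoxa2, Hoxb5 and Hoxb2, and among Hoxa4, Hoxa5 and Hoxa3, were smaller still in the means over all libraries. No member reached a mean of 1 TPM, and the mean of Hoxb4 stood at the 53.8th percentile of genes with any count.

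Levels dropped off above paralog 5. Summed over the clusters, paralog group 4 had a mean of 0.885 TPM in WT and 1.10 TPM in cKO, and group 5 had 0.490 and 0.633 TPM. Group 6 had 0.0525 and 0.0575 TPM, group 7 had 0.0825 and 0.125 TPM, and group 8 had 0.015 and 0.0175 TPM. Groups 10 to 13 had no count in any library. In the Hoxb cluster Hoxb6, Hoxb7 and Hoxb8 had 22, 28 and 8 counts, and in the Hoxa cluster Hoxa7 and Hoxa9 had 8 and 3, the latter all in cKO replicate 3. Of the 39 genes 21 were at 0 in every library, among them Hoxb1 and Hoxa6, which lie between or beside transcribed members. On the CPM scale, counts relative to the library total and not adjusted for length, a count of 0 allows up to 0.0524 to 0.0683 in a single library and 0.00762 over all 8 (3 counts of the total; counting error alone). The genotypes therefore could not be compared for the 21 silent genes beyond these limits.

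Of the 39 genes 8 passed the filter on low counts and were tested, and 31 were not. Of these 31, 10 had a count. The tested members were Hoxa2 to Hoxa5 and Hoxb2 to Hoxb5. In edgeR's quasi-likelihood test with Benjamini-Hochberg adjustment over all 15562 genes tested, 1 of the 8 was higher in cKO, where 15.2% of all genes were higher and 30.1% were called in either direction. Among 4478 genes at most 2 CPM on average, the range that holds all 8, 13% were higher and 20.4% called in either direction. None of the 8 was lower, against 14.9% of all genes. Of the 915 genes called at most 2 CPM on average, 583 were higher, so lower calls were a smaller share at this level. Neither limma-voom nor DESeq2 found a lower member, and without adjustment of p the number was 0 too. The median log2 change was 0.26 over the 8 genes and -0.01 over all genes tested, and 7 of the 8 estimates were above 0. The members were chosen with earlier results of these data known, so these counts are descriptions.

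**Figure D2:**
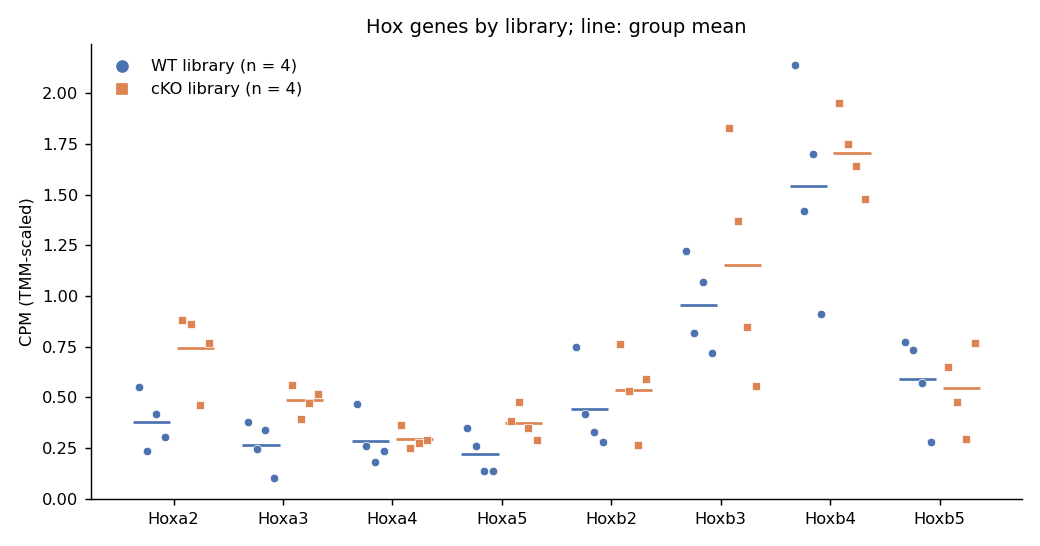
CPM (counts relative to the library total, scaled with TMM factors, vertical axis) of 8 tested Hox genes, with 1 point per library and a line at the mean of each genotype (n = 4). For Hoxa2 the cKO mean is 0.743 and the WT mean 0.377 CPM, and the points of the genotypes overlap for all genes shown except Hoxa3.

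Hoxa2 (ENSMUSG00000014704, mm10 chromosome 6, 52162417 to 52164831), which patterns the hindbrain and second branchial arch in embryos, was the member called higher in cKO. It stood at 0.551, 0.236, 0.416 and 0.304 CPM in WT replicates 1 to 4 and at 0.881, 0.863, 0.462 and 0.767 CPM in cKO replicates 1 to 4. The genotypes overlapped at their edge, with cKO replicate 3 under WT replicate 1. The means were 0.377 ± 0.138 and 0.743 ± 0.194 CPM (SD, n = 4 each), and the log2 change was 0.96 (SE 0.31, 95% interval 0.29 to 1.64, edgeR adjusted p = 0.0343). An exact two-sided permutation test of its CPM gave p = 0.0571, where 0.0286 is the smallest p the 70 assignments allow. The counts behind it were small: the lowest, 10 in WT replicate 2, has an exact Poisson 95% interval of 4.8 to 18.4, and the highest, 46 in cKO replicate 1, one of 33.7 to 61.4.

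The call of Hoxa2 depended on single libraries. It ended when any of WT replicates 2, 3 and 4 and cKO replicates 1, 2 and 4 was left out, with adjusted p values of 0.0643 to 0.0915, and leaving out WT replicate 1 or cKO replicate 3 kept it (0.0232 and 0.0201). The log2 change was 0.80 to 1.22 over these 8 fits. RefSeq places no other gene over Hoxa2, and its expected count was whole in all libraries but 1.

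Hoxa3, needed for the thymus, parathyroid and throat cartilages in embryos, had the second largest estimate. It stood at 0.381, 0.245, 0.341 and 0.105 CPM in WT and 0.563, 0.393, 0.474 and 0.519 CPM in cKO. Every cKO library lay above every WT library, as was the case for 15% of all genes tested, yet it did not pass (log2 change 0.84, SE 0.36, edgeR adjusted p = 0.0935). Its exact permutation p was 0.0286. Of the 8 members, each tested in this way, it alone was under 0.05.

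Hoxa3 shares its reads with an antisense transcript. Its expected count was not whole in any library, and neither was that of Hoxaas2, which lies over it, but their sum was whole to within 0.02 in all 8. The sums were 28, 18, 30 and 16 counts in WT and 41, 35, 37 and 42 in cKO. As 1 row the pair averaged 0.515 ± 0.142 CPM in WT and 0.714 ± 0.051 in cKO, with WT replicate 3 (0.688) above cKO replicate 2 (0.671) and replicate 3 (0.684). By edgeR the pair was not past the threshold (adjusted p = 0.163), at a log2 change of 0.47.

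Hoxa5, which acts in lung and neck patterning, had 0.347, 0.260, 0.138 and 0.140 CPM in WT and 0.383, 0.480, 0.351 and 0.290 CPM in cKO. The genotypes overlapped through WT replicate 1, and the test was not passed (log2 change 0.74, SE 0.35, edgeR adjusted p = 0.133). Limma on log2(TPM + 1) and on log2(TPM + 0.1) placed it past the threshold (adjusted p = 0.0427 and 0.0389). Hoxa4, its neighbour, averaged 0.287 ± 0.126 CPM in WT and 0.295 ± 0.049 in cKO (log2 change 0.03, 95% interval -0.71 to 0.76, edgeR adjusted p = 0.964), and its sign turned when cKO replicate 1 or any WT replicate but the first was left out. Whether the change of Hoxa4 differs from that of its neighbours was not tested.

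The Hoxb cluster had the higher summed level, with 1.94 ± 0.720 TPM in WT and 2.34 ± 0.483 TPM in cKO against 0.843 ± 0.234 and 1.5 ± 0.141 TPM for the Hoxa cluster, and none of its 4 tested members was called. Hoxb4, studied for its part in blood stem cell growth, had 2.14, 1.42, 1.70 and 0.913 CPM in WT and 1.95, 1.75, 1.64 and 1.48 CPM in cKO. All cKO libraries fell inside the WT range (log2 change 0.14, 95% interval -0.36 to 0.64, edgeR adjusted p = 0.675), and without WT replicate 4 the estimate was -0.04. Hoxb5, a regulator in the enteric nervous system, averaged 0.590 ± 0.224 CPM in WT and 0.548 ± 0.206 in cKO (log2 change -0.11, 95% interval -0.88 to 0.66, edgeR adjusted p = 0.843). It was the one tested member with an estimate below 0, and its sign turned under 5 alternatives. These intervals leave room for changes of more than 1.5-fold in either direction for Hoxb5, and upward for Hoxb4.

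Hoxb3 and Hoxb2, expressed in the embryonic hindbrain, are bound up with the opposite-strand transcript Hoxb3os. Hoxb3 had 60, 34.7, 46.8 and 30.8 counts in WT and 95.6, 71.6, 45.8 and 32.7 in cKO, while Hoxb3os had 11.7, 39.5, 44.7 and 60.8 in the same cKO libraries. The cKO library with the most Hoxb3 had the least Hoxb3os, and the one with the least Hoxb3 had the most. The WT libraries did not share this pattern. Among them both genes were highest in replicate 1 (Hoxb3os 31.2 counts) and lowest in replicate 4 (Hoxb3os 13.2 counts). Hoxb2 had 36.8, 17.7, 14.3 and 12 counts in WT and 39.7, 27.9, 14.5 and 34.5 in cKO. The 3 genes together gave whole numbers in all 8 libraries: 128, 68, 75 and 56 in WT and 147, 139, 105 and 128 in cKO. So the split of these reads between the 3 genes is an estimate of RSEM, and the strand setting is not given in the sources used here.

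**Figure D3:**
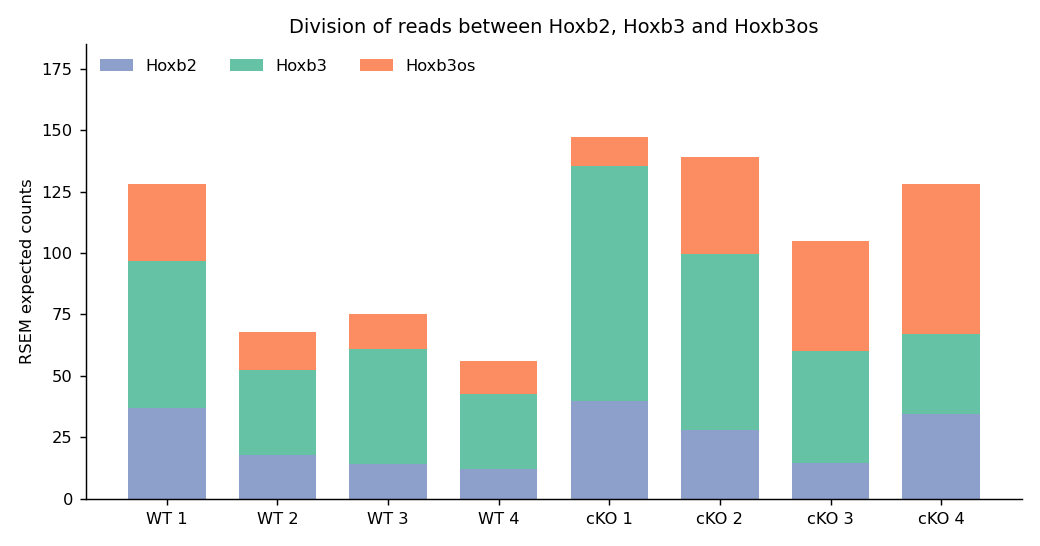
Expected counts (vertical axis) of Hoxb2, Hoxb3 and Hoxb3os stacked for each library (horizontal axis). The share of Hoxb3os differs widely between cKO libraries, from 11.7 counts in replicate 1 to 60.8 in replicate 4, while the stacks total 147 and 128.

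Taken singly, Hoxb3 averaged 0.959 ± 0.231 CPM in WT and 1.15 ± 0.565 in cKO (log2 change 0.25, 95% interval -0.48 to 0.99, edgeR adjusted p = 0.599), and without cKO replicate 1 the estimate was -0.06. Hoxb2 had 0.444 ± 0.212 and 0.538 ± 0.204 CPM (log2 change 0.26, 95% interval -0.57 to 1.09, edgeR adjusted p = 0.637). Merged into 1 row with Hoxb3os they averaged 1.81 ± 0.560 CPM in WT and 2.40 ± 0.409 in cKO. The log2 change of that row was 0.40 (SE 0.21, edgeR adjusted p = 0.178). Without WT replicate 1, at 2.61 CPM the highest of the WT libraries, it was 0.63 and past the threshold (adjusted p = 0.0344).

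Summed over each cluster, and given here without a test, the Hoxa genes had 1.91, 1.05, 1.26 and 1.02 CPM in WT and 2.55, 2.16, 1.93 and 2.24 CPM in cKO. The lowest cKO library thus stood just over the highest WT library, and the means were 1.31 ± 0.416 and 2.22 ± 0.256 CPM, a ratio of 1.7. The Hoxb sums were 5.10, 3.48, 3.69 and 2.29 CPM in WT and 5.29, 4.32, 3.18 and 3.68 CPM in cKO. Those of the genotypes overlapped, with means of 3.64 ± 1.15 and 4.12 ± 0.909 CPM. WT replicate 1 was the highest WT library for all 8 tested members and WT replicate 4 the lowest for 5, and cKO replicate 1 was the highest cKO library for 6. Without WT replicate 1 the log2 ratio of the cluster means was 1.00 for Hoxa in place of 0.76, and 0.39 for Hoxb in place of 0.18. Without WT replicate 4 it was 0.66 for Hoxa and 0.01 for Hoxb, and without cKO replicate 1 it was 0.69 and 0.04.

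**Figure D4:**
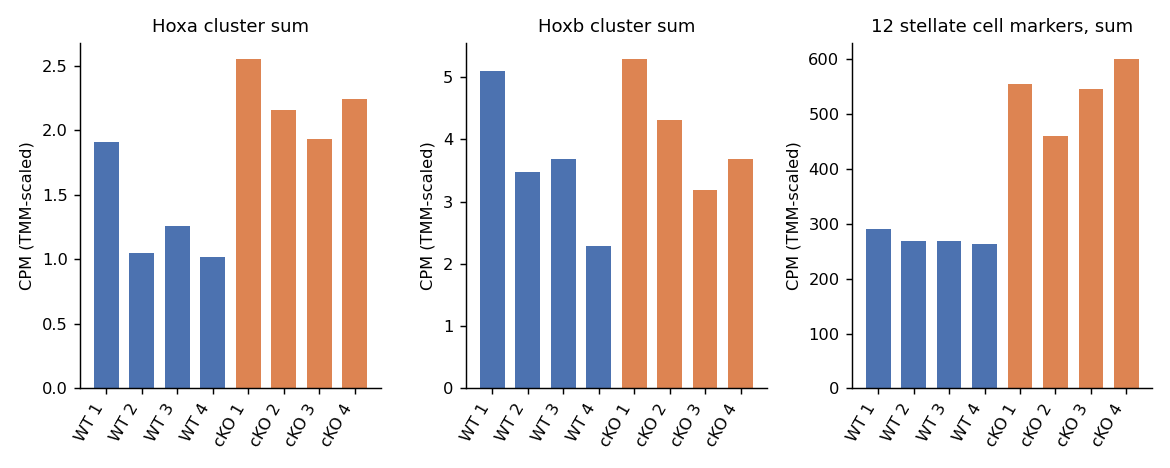
Bars show the summed CPM (vertical axes, from 0) of the Hoxa genes, the Hoxb genes and 12 stellate cell markers in each library, WT in blue and cKO in orange. The Hoxa bars are 1.02 to 1.91 CPM in WT and 1.93 to 2.55 in cKO, the Hoxb bars overlap, and the marker bars are 263 to 290 and 460 to 600.

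Some markers of other liver cells moved with the genotypes, and their part in the Hox values was not tested. For scale, 15.2% of all genes tested were higher and 14.9% lower. In whole tissue, fewer cells of a type and less RNA per cell cannot be told apart. Hepatocyte markers, the check of the tissue label, were abundant, with albumin at 33700 TPM in WT and 42300 TPM in cKO. Of 10 tested 1 was higher and 4 lower, and they summed to 90600 to 119000 CPM in WT and 101000 to 114000 CPM in cKO. Of 12 stellate cell markers 11 were higher and 0 lower (0 lower also at an unadjusted p under 0.05), with a median log2 change of 0.81. Their summed level was 263 to 290 CPM in WT and 460 to 600 CPM in cKO. Lrat, of vitamin A storage, had a log2 change of 1.45 and the matrix gene Dcn one of 1.57. Of 11 markers of portal fibroblasts and mesothelium 5 were higher and 0 lower (7 and 0 at an unadjusted p under 0.05), and the summed level of the 12 listed was 12.6 to 16.9 CPM in WT and 22.7 to 25.1 CPM in cKO.

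Endothelial markers were less divided by genotype. Of 12 tested 3 were higher, among them Rspo3, a Wnt enhancer of central vein endothelium (log2 change 1.19), and their sums overlapped, at 143 to 264 CPM in WT and 196 to 290 CPM in cKO. WT replicate 4, the lowest library for Hoxb4 and Hoxb5, also had the lowest endothelial, hepatocyte and stellate cell sums (143, 90590 and 263 CPM). The highest endothelial sum was in cKO replicate 4 (289.8 CPM). That library was the lowest of the cKO libraries for Hoxb4 (1.48 CPM) and the highest of them for Hoxb5 (0.767 CPM). Whether Hox levels follow these sums was not tested. The shares over all genes tested were 15.2% higher and 14.9% lower. Of 7 cholangiocyte markers 3 were higher and 1 lower, and of 8 macrophage markers 1 was higher. Of 10 markers of T, NK and B cells 4 were higher, and of 7 of blood progenitors and red cells 2 were lower. The sums of these 4 lists overlapped between genotypes, the cholangiocyte sum being 46.8 to 61.7 CPM in WT and 40.9 to 49.0 CPM in cKO. Of 12 markers of kidney, gut and muscle, tissues where other Hox genes are used, 3 were tested and none was called (1 at an unadjusted p under 0.05). Over all 12, of which 1 was at 0 in every library, the sum was 132 to 159 CPM in WT and 135 to 168 CPM in cKO, nearly all of it from Fabp2, a fatty acid binding protein gene, at 129 to 155 and 133 to 167 CPM. The kidney gene Umod and the muscle gene Ckm, named like Fabp2 after their values were seen, had at most 0.0204 and 0.0191 CPM in any library. No marker of the other lists was at 0 in every library.

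Noncoding transcripts of the clusters were few as well. Of 18 listed genes in the files 3 were tested and none was called, at an unadjusted p under 0.05 either. Among all genes tested 30.1% were called in either direction, and 20.4% of those at most 2 CPM on average. With 3 genes tested, a count of 0 cannot be told apart from these shares. The median log2 change of the 3 was 0.77. Hotairm1 of the Hoxa cluster had 0.204, 0.236, 0.115 and 0.023 CPM in WT and 0.268, 0.230, 0.352 and 0.153 CPM in cKO (log2 change 0.77, edgeR adjusted p = 0.259). Hoxb3os missed the threshold in edgeR (adjusted p = 0.164, log2 change 0.80) and was past the threshold without cKO replicate 1 (1.09, adjusted p = 0.0236), and Hoxaas2 had -0.11 (edgeR adjusted p = 0.832). Hotair of the Hoxc cluster, Hottip beside Hoxa13 and Haglr of the Hoxd cluster were at 0 in every library. The 6 microRNA genes of the list have an effective length of 0 in the files, so their values of 0 are no measurement.

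Of 20 tested genes that flank the clusters 3 were higher, 2 lower and 15 not called, with a median log2 change of 0.10, where 30.1% of all genes tested were called in either direction. Beside the Hoxa cluster, whose members had the largest Hox estimates, none of 4 was called: Skap2, Snx10, Hibadh and Tax1bp1 had log2 changes of 0.09, 0.51, -0.12 and 0.14. Snx10, a sorting nexin gene (adjusted p = 0.0605 in edgeR), was past the threshold under 9 of 20 alternatives, among them DESeq2, limma-voom, library size alone and leaving out WT replicate 4. Tax1bp1 was past it under 3, library size alone and limma on log2 TPM with either pseudocount. Skap2, an adaptor protein gene 143 kb from the cluster, stood at 13.4 ± 1.47 and 14.3 ± 0.901 CPM. Beside the Hoxb cluster Cbx1, a heterochromatin protein, was lower (log2 change -0.22, edgeR adjusted p = 0.0433), while Skap1, Snx11 and Nfe2l1 had 0.62, 0.12 and -0.04 and were not called.

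**Figure D5:**
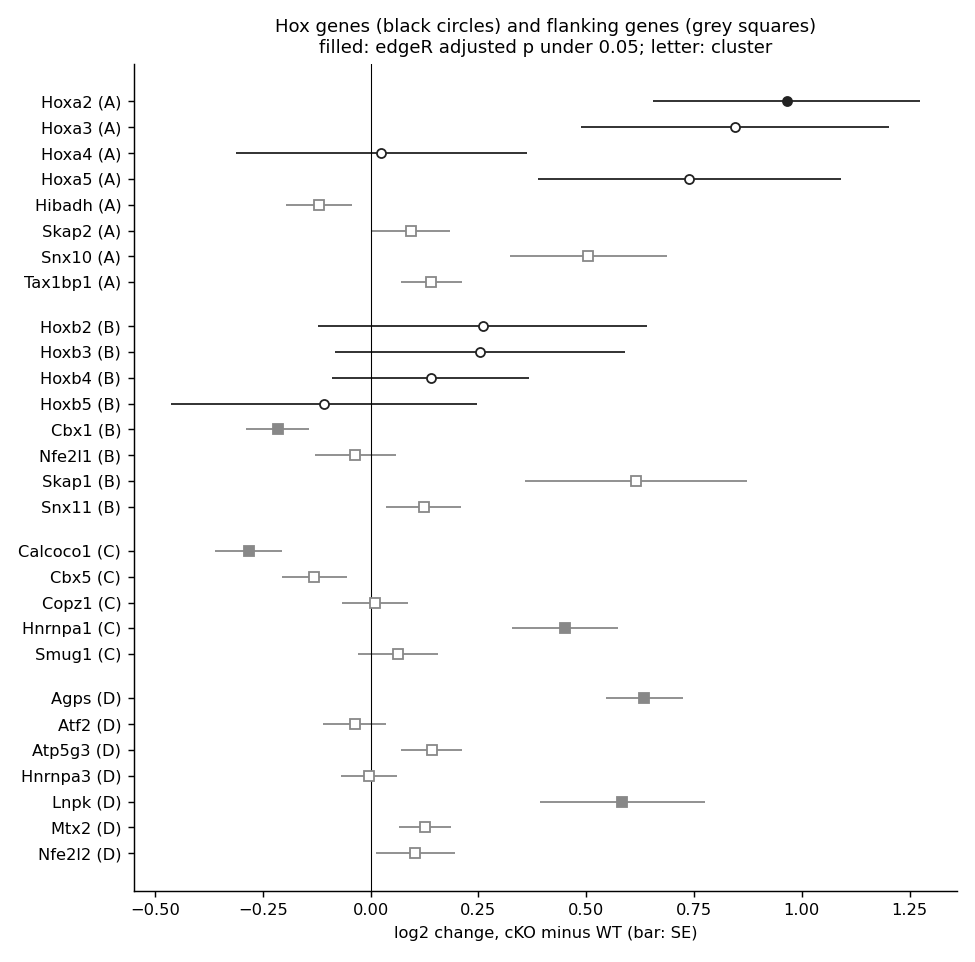
Log2 change from WT to cKO (horizontal axis, bars: SE) of 8 tested Hox genes (circles) and 20 tested flanking genes (squares), ordered by cluster, with filled symbols for an edgeR adjusted p under 0.05. Hoxa2 at 0.96 is the filled circle, and the filled squares are Cbx1, Calcoco1, Hnrnpa1, Agps and Lnpk.

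Beside the silent Hoxc and Hoxd clusters the neighbours were transcribed. At Hoxc the RNA-binding protein gene Hnrnpa1, 203 kb away, was higher (42.9 ± 2.99 to 58.6 ± 11.6 CPM, log2 change 0.45) and Calcoco1 lower (log2 change -0.28), while Smug1, Cbx5 and Copz1 had 0.06, -0.13 and 0.01. At Hoxd Lnpk, an endoplasmic reticulum shaping gene 88.8 kb from Hoxd13, averaged 0.896 ± 0.157 CPM in WT and 1.34 ± 0.165 in cKO (log2 change 0.58, edgeR adjusted p = 0.0378). Agps, of ether lipid synthesis and 1070 kb away, rose from 5.41 ± 0.304 to 8.41 ± 0.293 CPM (log2 change 0.63, edgeR adjusted p = 0.000555). Mtx2, 60.7 kb from Hoxd1, Hnrnpa3, Nfe2l2, Atf2 and Atp5g3 had log2 changes of 0.13, -0.003, 0.10, -0.04 and 0.14 and were not called. Leaving out a library ended the calls of Calcoco1 (WT replicate 3 or cKO replicate 2), Hnrnpa1 (WT replicate 2 or 3), Lnpk (all but WT replicate 2 and cKO replicate 2) and Cbx1 (all but WT replicates 1 and 4). Library size alone and limma on log2 TPM also ended those of Calcoco1 and Cbx1, no filter those of Lnpk and Cbx1, and upper quartile factors and the length offset that of Cbx1. Limma on log2 TPM placed Skap1, Mtx2, Atp5g3 and Nfe2l2 past the threshold, as did library size alone for Mtx2 and Atp5g3.

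The HOX proteins bind DNA with partners of the TALE class, of which all 9 genes were tested. Pknox1 was higher (9.01 ± 0.584 to 11.2 ± 1.16 CPM, log2 change 0.31, edgeR adjusted p = 0.0295), 0 were lower (0 also at an unadjusted p under 0.05), and the median was 0.04. Among all genes tested 15.2% were higher and 14.9% lower. The call of Pknox1 was lost without WT replicate 1 or 3 or cKO replicate 3 or 4. Meis1, Meis2 and Pbx2 had log2 changes of 0.26, 0.31 and -0.13 and did not pass. Limma on log2 TPM called Meis1. The summed TALE level was 20.8 to 23.3 TPM in WT and 22.1 to 25.2 TPM in cKO, where the Hoxb cluster summed to 1.19 to 2.92 and 1.72 to 2.90 TPM and the Hoxa cluster to less.

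Of 30 Polycomb genes, which hold the clusters silent, 7 were higher, 4 lower and 19 not called, where 15.2% of all genes tested were higher and 14.9% lower. The list had a median log2 change of -0.14, which was 0.06 on log2(TPM + 1) and 0.08 on log2(TPM + 0.1). Pcgf2, a RING finger partner in Polycomb complex PRC1, fell from 17.4 ± 2.46 to 9.73 ± 1.53 CPM (log2 change -0.84, edgeR adjusted p = 0.000931), the ubiquitin ligase Ring1 had -0.46, and the histone-binding Rbbp7 had 0.41. Phf1 had -0.37, a call lost with limma on log2 TPM. Of 15 trithorax-class and H3K27 demethylase genes 1 was higher, Dpy30 (log2 change 0.29), and 6 lower, among them Mllt10, Men1 and Dot1l (-0.28, -0.23 and -0.29). With library size alone or limma on log2 TPM these 3 lower calls were lost, with the length offset those of Mllt10 and Men1, and with no filter that of Men1. Leaving out a library ended the calls of Dpy30 (WT replicate 2 or 3 or cKO replicate 4), Mllt10 (all but WT replicates 2 and 4 and cKO replicate 2), Men1 (all but WT replicate 4 and cKO replicate 1) and Dot1l (all but WT replicate 4 and cKO replicate 2).

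Retinoic acid, which turns on low-numbered Hox genes in embryos, acts through genes of which 13 of 18 listed were tested. Of these 13, 5 were higher and 1 lower, where 15.2% of all genes tested were higher and 14.9% lower. Rarb, a retinoic acid receptor that is itself a target, stood at 0.567, 0.406, 0.351 and 0.308 CPM in WT and 0.831, 1.19, 0.825 and 0.939 CPM in cKO, with no overlap (log2 change 1.21, edgeR adjusted p = 0.00501). The retinoic acid degrading enzymes Cyp26a1 and Cyp26b1 had log2 changes of 1.15 and 1.45. Dhrs3, which reduces retinaldehyde, was lower (-0.26, edgeR adjusted p = 0.0378). Its call was lost with library size alone, upper quartile factors, limma on log2 TPM and no filter, and without WT replicate 1, 2 or 3 or cKO replicate 2, 3 or 4. The ParaHox and Evx genes, relatives of the Hox genes, were too low to test: 6 of 8 were at 0 in every library and the sum of all 8 was at most 0.0234 CPM.

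The targeted gene was checked for the labels. Ctcf had 16 to 16.9 CPM in WT and 10.9 to 13.1 CPM in cKO, with no overlap (log2 change -0.44, edgeR adjusted p = 0.00177). On the TPM scale the groups overlapped, at 5.34 to 6.04 in WT and 4.56 to 5.42 in cKO, and limma did not call it on log2(TPM + 1) or log2(TPM + 0.1) (adjusted p = 0.161 and 0.154). Over the whole series 2367 genes were higher and 2322 lower, and with library size alone, which moved the median of all genes from -0.01 to 0.10, 3604 and 1318. On log2(TPM + 0.1) that median was 0.15 and the median of the tested Hox genes 0.32, and on log2(TPM + 1) they were 0.10 and 0.11. The labels number the samples without saying that each came from its own mouse, so the p values cover the spread among samples as deposited, which may be technical.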

How the data were processed

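Per the labels' protocols, RNA was taken from liver with Trizol and made into libraries by an Illumina TruSeq RNA kit. Per the submitters' processing notes, alignment used STAR 2.5.1, quantification RSEM, and the build was mm10. For the RSEM version, annotation and strand setting, nothing is stated in the labels or headers. The authors deposited RSEM expected counts, TPM and effective lengths per gene, per the file headers. Division of shared reads makes overlapping, antisense and homologous genes uncertain.

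Expected counts were rounded, filtered with filterByExpr (minimum count 10, minimum total 15), scaled with TMM factors (mean 0.964 in WT, 1.04 in cKO) and tested with edgeR 4.0.16 (estimateDisp, robust glmQLFit, glmQLFTest; R 4.3.3), with Benjamini-Hochberg adjustment at 0.05. SEs come from the F statistic and 95% intervals from its degrees of freedom. CPM use totals times TMM factors, and count limits use totals alone. The fit was tested on simulated data. The Hox genes, the lists and the motifs were chosen with earlier results of these data known. Named were all tested Hox and flanking genes and, per other list, up to 4 members of smallest p plus the smallest in the opposite direction; of marker lists, called ones. Results for some genes are not reported here. Positions and promoter sequences came from RefSeq's GRCm38.p6 tables, matched by symbol for 39 and 22 Hox genes. The genome at hand was of another build and not used.

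Alternatives were RLE and upper quartile factors, library size alone, no filter, 1 CPM in 4 libraries, DESeq2 1.42.0, limma-voom (limma 3.58.1), limma on log2(TPM + 1) and log2(TPM + 0.1), an effective length offset, the replicate number as a block, adjusted p under 0.01 and leaving out each library. Merging genes with divided reads was chosen after seeing the data. Libraries of a genotype differed pairwise by more than counting noise (chi-square over its degrees of freedom, 28.5 or more). Figures were drawn with matplotlib 3.10.9.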

Additional observations from a re-analysis of the deposited data

Results flagged for a closer look

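In 154 groups of 4 libraries, 1 for each gene or sum and genotype, no Hox gene or cluster sum had a library apart from the other 3 of its genotype by Dixon's test at 95%. That test sets a library apart in about 1 in 20 groups by chance. Of the other genes, WT replicate 4 stood apart with 0.187 CPM for Cd3d, 4.21 CPM for Klf1 and 6220 CPM for Ttr, each below the other WT libraries, and with 2420 CPM for Cps1 and 9.69 CPM for Marco, above them. WT replicate 1 was apart with 11.9 CPM for Atf2, against 13.3 to 13.6 CPM in the other WT libraries. In cKO, replicate 4 was apart with 15.7 CPM for Skap2 and 40.1 CPM for Rgs5, both above the rest. Replicate 3 had 1.15 CPM for Cldn7 and replicate 1 had 0.67 CPM for Nkg7, both below the other cKO libraries.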

How the results depend on the processing

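At 229 counts for Hoxa2 and 154 for Hoxa3 over all libraries, counting error limits the Hox values. The number of Hox genes called higher was 1. It was 0 with 1 CPM in 4 libraries (where of the members Hoxb3 and Hoxb4 were left) or at adjusted p under 0.01. With limma on log2(TPM + 1) or log2(TPM + 0.1) it was 2 (Hoxa2 and Hoxa5), and 0 to 1 when a library was left out. Without cKO replicate 2 the 1 gene called was not Hoxa2 (edgeR adjusted p = 0.0745) or any other of the 8 members tested with all libraries. The number called lower was 0 under all alternatives. Over all genes, library size alone gave 3604 higher and 1318 lower, limma on log2(TPM + 1) 3848 and 875, on log2(TPM + 0.1) 3847 and 878, and adjusted p under 0.01 1165 and 1050. The log2 ratio of the Hoxa sums, 0.762, was 0.659 to 1.00 over the alternatives run. That of the Hoxb sums, 0.179, was 0.0108 to 0.386 and thus moved by about its own size. The causes were not tested.

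Some estimates near 0 turned sign (log2 changes). When a library was left out, Hoxa4 had -0.138 to 0.382, Hoxb3 -0.0584 to 0.487, Hoxb4 -0.043 to 0.343, Hoxb5 -0.335 to 0.110, Hoxaas2 -0.233 to 0.0869, Copz1 -0.0273 to 0.0608, Hnrnpa3 -0.0174 to 0.0423 and Nfe2l1 -0.0803 to 0.0649. On log2(TPM + 1) and log2(TPM + 0.1) Hoxb5 had 0.0158 and 0.0532, Atf2 0.0445 and 0.0542, Cbx5 0.0463 and 0.0586, Hibadh 0.0596 and 0.0599, Nfe2l1 0.0873 and 0.0904 and Hnrnpa3 0.305 and 0.308. With library size alone Atf2 had 0.0693, Nfe2l1 0.0695 and Hnrnpa3 0.103. With the length offset Hoxb3 had -0.000555, Skap2 -0.0286 and Hnrnpa3 0.143. Hnrnpa3 also had 0.00187 with RLE factors, 0.00636 with upper quartile factors, 0.0145 with no filter, 0.00291 with 1 CPM in 4 libraries and 0.0019 with DESeq2.

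Same-numbered libraries' deviations from their group means correlated at 0.0417 to 0.0567, and those of libraries with different numbers at -0.104 to 0.0921. WT replicates 1, 2 and 3 each correlated best with the cKO library of the same number, and WT replicate 4 with cKO replicate 2. These values do not settle whether the replicate numbers pair the samples. With the number as a replicate block, 2525 genes were higher and 2419 lower, 1 Hox gene was higher and 0 lower, Hoxa2 had an adjusted p of 0.0451, and of the flanking genes Lnpk lost its call and Snx10 gained one.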
